A study of Drosophila melanogaster with 20 samples.

Results

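The effect of doxycycline (DOX) in the food was measured in control flies of a study of MnSOD over-expression and lifespan in Drosophila melanogaster. The comparison set 4 arrays of control +DOX flies against 4 arrays of control -DOX flies, 8 of the 20 DrosGenome1 arrays of the series, and its members were the 12444 probe sets, of 14010 on the array, whose annotation names 1 gene. They cover 10845 genes, and each gene is described below by the probe set with the highest mean. Both control groups were adult male progeny of Oregon R flies crossed to the rtTA(3)E2 line, which expresses the reverse tetracycline transactivator in all tissues, and neither group carries an MnSOD transgene for DOX to switch on. The +DOX flies received DOX from young adulthood, and both foods held ampicillin. Each sample pooled 30 whole males at about 50% survival of the -DOX flies, an age given as day 73 in the labels and day 78 in the series description. The labels call the replicates biological, but no source used here says that they were raised apart. The spread between samples on which p-values rest may therefore be technical. In whole flies, fewer cells of a type and less RNA per cell cannot be told apart.

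DOX is a tetracycline, a class of antibiotics that bind the bacterial ribosome and can also slow translation in mitochondria. Flies meet bacteria mainly through the gut. Bacterial peptidoglycan there and in the body is sensed by PGRP receptors, which act through the Imd pathway and the NF-kappaB factor Relish to switch on antimicrobial peptide genes in gut and fat body, while fungi and many Gram-positive bacteria act through the Toll pathway. Several targets of Relish, among them pirk and the amidases PGRP-LB and PGRP-SC2, feed back to dampen the pathway.

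Values are RMA values on the log2 scale, and a change is the mean of the +DOX arrays minus that of the -DOX arrays. Direction follows the deposited sample labels and is opposite in sign to the DOX table of the study. With the labels of the control groups exchanged, every change would keep its size and turn its sign.

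The control +DOX arrays were not alike in their technical signals. The bacterial transcripts BioB, BioC, BioDn and CreX, spiked into each sample before hybridization, had mean values of 9.61, 10.24, 9.61 and 9.61 in -DOX replicates 1 to 4 and of 8.41, 7.98, 8.09 and 9.69 in +DOX replicates 1 to 4. Replicate 4 of +DOX thus lay within the -DOX range and replicates 1 to 3 below it, and the groups differed by -1.23 (two-sided exact permutation test, p = 0.114, 4 arrays against 4). The MnSOD line arrays lay between 9.36 and 9.99. The excess of 3' over 5' signal in control transcripts, a measure of how far labelling reached along the RNA, was 3.35, 2.30, 2.01 and 1.96 without DOX and 1.30, 1.22, 1.05 and 1.88 with DOX. Every +DOX array lay below every -DOX array (difference -1.04, exact permutation p = 0.0286, the smallest this design allows), replicate 4 by the least. Probe sets for 18S ribosomal RNA had means of 3.41 to 3.51 without DOX and of 8.84, 3.94, 5.44 and 3.37 with DOX, so that replicates 1 to 3 were above all -DOX arrays and replicate 4 was below them. Over all probe sets, +DOX replicates 1 to 3 correlated with each other at 0.993 or more, and replicate 4 at 0.984 to 0.991 with these 3 and at 0.979 to 0.990 with the -DOX arrays. The part of these signals in the changes below was not tested. For most lists, medians or calls are therefore given also with replicate 4 as the only +DOX array.

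**Figure D1:**
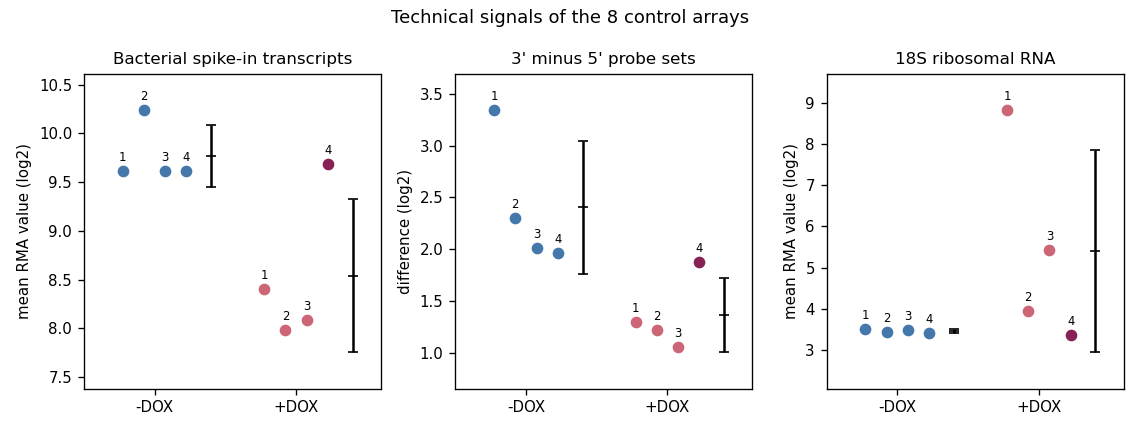
Mean RMA value of the bacterial spike-in probe sets, excess of 3' over 5' signal of the control transcripts and mean RMA value of the 18S ribosomal RNA probe sets (log2) in each control array, numbered by replicate, with group mean and SD beside the points. Spike-in signal is 9.69 in +DOX replicate 4 (dark) and 7.98 to 8.41 in +DOX replicates 1 to 3.

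A call required a fold of 1.2 or more together with a Benjamini-Hochberg adjusted p below 0.01 in limma, fitted to all 20 arrays. The spread behind these p-values was pooled over all 5 groups of the series, so it is in part that of the MnSOD line arrays. Of the 12444 members, 1469 (11.8%) were called higher and 1708 (13.7%) lower with DOX. With each array centred on its median the split became 1895 higher and 1140 lower. Taken per gene, 1387 of 10845 genes (12.8%) were higher and 1369 (12.6%) lower, and the median change of all genes was -0.03. Leaving out +DOX replicate 4 raised the member counts to 1963 higher and 2426 lower, and leaving out any other +DOX replicate lowered both. A fit that keeps 1 +DOX array loses calls through its size alone, and no fit kept replicate 1, 2 or 3 alone. Counts with replicate 4 alone therefore cannot show which arrays the totals rest on. For the same reason, a list without calls in that fit is not a result about its genes. With replicate 4 as the only +DOX array, whose spread was then taken from the other groups, 40 members were higher (0.321%) and 8 lower (0.0643%), and with the spike-in mean as a covariate 62 were higher (0.498%) and 20 lower (0.161%), 0.659% in all. Per gene, replicate 4 as the only +DOX array gave 40 higher (0.369%) and 7 lower (0.0645%). Without +DOX replicate 1 alone the counts were 898 and 838, and without +DOX replicate 3 alone 951 and 942. A fit to the 8 control arrays only, which estimates the spread from them alone, called 655 higher (5.26%) and 474 lower (3.81%), 9.07% in all, or 627 (5.78%) and 384 (3.54%) of the genes.

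Genes were called on a +DOX mean that includes replicate 4, so its direction is in part built into the calls. Of the 1387 genes called higher, 1361 (98.1%) were above the -DOX mean in replicate 4 too, but in 1100 (79.3%) it was the +DOX array closest to the -DOX arrays. Of the 1369 called lower, 1351 were below the mean in replicate 4 and in 1195 (87.3%) it was the closest. The -DOX and +DOX values did not overlap for 1027 of the genes called higher and 973 of those called lower, against 2904 of all 10845 genes (26.8%). Median changes of the genes called higher were 0.64, 0.48, 0.57 and 0.27 in +DOX replicates 1 to 4, and those of the genes called lower were -0.51, -0.40, -0.45 and -0.21. A set of 46 genes, 40 higher and 6 lower, was called in the fit to all arrays, in the fit with replicate 4 as the only +DOX array and in the fit with the spike-in covariate. Its medians did not shrink in the same way, at 1.42, 1.30, 1.27 and 1.29 for the 40 genes and -0.90, -0.58, -0.72 and -0.91 for the 6, but the set was chosen in part on the value of replicate 4. Genes of this set are named below as called in all 3 fits. Spike-in means of +DOX replicates 1 to 3 (7.98 to 8.41) lay below those of all other arrays (9.36 to 10.24). The covariate thus sets these 3 arrays apart, and its fit also leans on replicate 4. The 3 fits share arrays and are not independent support.

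**Figure D2:**
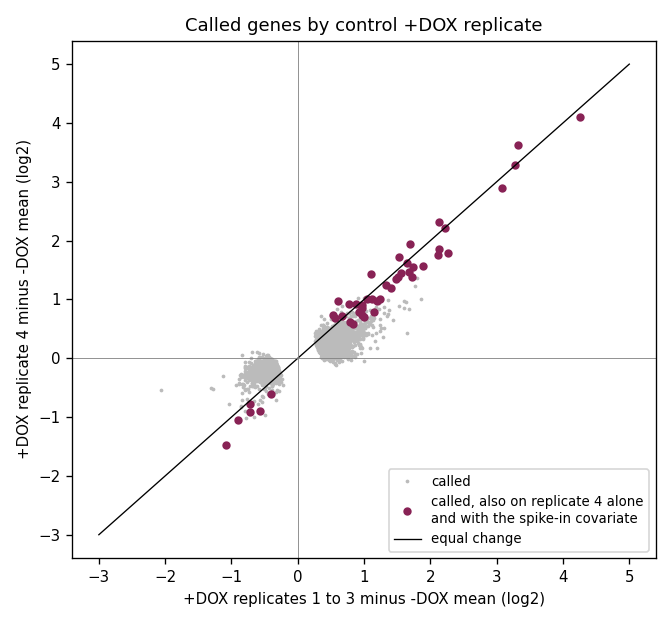
Change from the -DOX mean (log2) of each gene called with DOX, as the mean of +DOX replicates 1 to 3 (horizontal axis) and in replicate 4 (vertical axis), with the line of equal change. Most called genes (grey) lie between that line and 0 on the vertical axis, while the 46 genes called in all 3 fits (dark) lie along it.

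The largest changes were those of immune effector genes. Of 9 antimicrobial peptide genes that the annotation names, 6 were higher with DOX (66.7%, against 12.8% of all genes) and 1 was lower (11.1%, against 12.6%). Their median change was 2.02, and 1.75 in replicate 4 alone. DptB, a diptericin that acts on Gram-negative bacteria, had values of 8.65, 8.84, 8.32 and 8.63 without DOX and of 12.81, 12.90, 12.89 and 12.72 with DOX. No other gene rose as far, and the groups were separated by more than the range of either. Mtk, the gene of metchnikowin, an antifungal and antibacterial peptide, had 10.00, 9.85, 9.03 and 9.56 against 12.87, 13.01, 12.91 and 13.23, and replicate 4 held its highest value. Drs, the gene of the antifungal peptide drosomycin, had 9.84, 10.06, 9.80 and 9.67 against 11.81, 12.09, 12.03 and 12.16, again with replicate 4 highest. Def, for defensin, which acts on Gram-positive bacteria, had 6.53, 6.30, 6.29 and 5.81 against 9.66, 9.57, 9.29 and 9.52. These 4 genes rose by between 2.18 and 4.22.

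AttD, which encodes an attacin, had 5.31, 5.77, 5.73 and 5.55 without DOX and 7.37, 8.005, 7.72 and 7.34 with DOX (change 2.02, standard error 0.152, limma adjusted p = 2.76e-09). CecB, which encodes a cecropin and was singled out after its values were seen, had 4.83, 4.76, 4.71 and 4.69 against 5.78, 6.69, 6.73 and 6.36 (1.64, standard error 0.145, adjusted p = 4.39e-08). In both genes all +DOX arrays lay above all -DOX arrays, with replicate 1 the lowest of the +DOX arrays for CecB. The 1 gene that fell was Anp, also chosen after its values were seen, which encodes andropin, a peptide made in the ejaculatory duct of males. It had 12.45, 12.66, 12.56 and 12.63 against 12.25, 12.07, 12.06 and 12.40 (-0.38, adjusted p = 0.000621), and with replicate 4 as the only +DOX array its change was -0.17 (adjusted p = 0.592). The remaining members, Drsl5 and Drsl6, relatives of drosomycin, were not called, at 0.20 and -0.06.

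The small immune-induced peptides outside these families did not move as a group. Of 10 Bomanins and other such peptides, 1 was higher and 2 were lower (10% and 20%, against 12.8% and 12.6% of all genes). Their median was 0.08 and became -0.11 after quantile normalization. The 1 that rose was Listericin, an antibacterial peptide gene, at 9.39, 9.25, 8.56 and 9.16 without DOX and 11.34, 11.13, 11.46 and 11.31 with DOX (2.22, standard error 0.2, limma adjusted p = 5.73e-08), called in all 3 fits. BomS5 and BomS6, Bomanins that are targets of Toll signalling, fell by 0.34 (adjusted p = 0.00311) and 0.31 (adjusted p = 0.00411). Neither fall was called with replicate 4 as the only +DOX array (-0.22 and -0.08). The fall of BomS5 was not called without -DOX replicate 2 or 4 or +DOX replicate 1 or 3 (-0.33 to -0.29), nor that of BomS6 without -DOX replicate 2 or +DOX replicate 2 or 3 (-0.28 to -0.26).

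**Figure D3:**
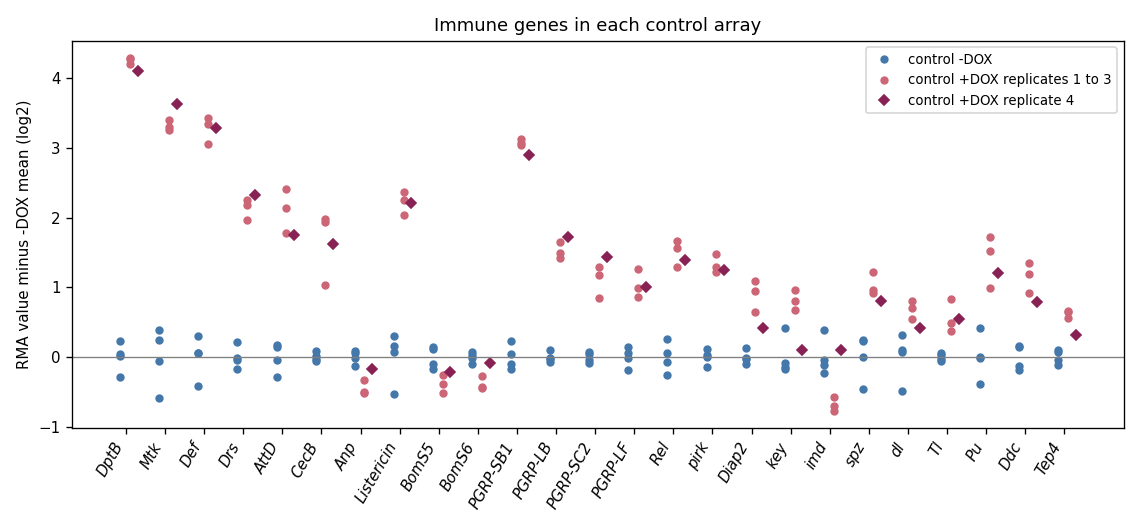
RMA value minus the -DOX mean of the gene (log2) for 25 immune genes in the 4 control -DOX arrays, +DOX replicates 1 to 3 and +DOX replicate 4. From DptB to CecB and from PGRP-SB1 to pirk replicate 4 lies with the other +DOX arrays, while for Diap2, key and imd it lies closest to the -DOX arrays.

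Peptidoglycan-cleaving amidases and PGRP-LF, all of the PGRP family, were higher with DOX. Of 9 genes for recognition of peptidoglycan and glucan, 4 were higher (44.4%, against 12.8% of all genes) and 0 lower, with a median of 0.28. These 4 are among the genes called in all 3 fits. PGRP-SB1, an amidase that cleaves peptidoglycan, had 8.85, 8.52, 8.44 and 8.66 without DOX and 11.74, 11.66, 11.68 and 11.51 with DOX, the largest rise of the 4 at 3.03. PGRP-LB, an amidase that degrades peptidoglycan and so dampens Imd signalling, had 7.42, 7.37, 7.43 and 7.55 against 8.87, 8.94, 9.09 and 9.17 (1.57, standard error 0.0903, limma adjusted p = 5.51e-11). PGRP-SC2, a further dampening amidase, had 8.72, 8.59, 8.63 and 8.75 against 9.53, 9.97, 9.84 and 10.10 (1.19, standard error 0.111, adjusted p = 1.05e-07). For both amidases the groups were apart and replicate 4 held the highest value. PGRP-LF, a membrane protein that holds back the receptor PGRP-LC and was singled out after its values were seen, had 3.59, 3.75, 3.83 and 3.92 against 4.76, 4.64, 5.03 and 4.78 (1.03, adjusted p = 8.6e-08).

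Within the Imd pathway the changes were uneven. Of 13 signalling genes, 5 were higher (38.5%, against 12.8% of all genes) and 1 was lower (7.69%, against 12.6%). Their median was 0.20, and 0.10 in replicate 4 alone. Rel and pirk were called in all 3 fits. Rel, which encodes Relish, had 7.57, 7.89, 7.75 and 8.09 without DOX and 9.48, 9.11, 9.39 and 9.21 with DOX (1.48, standard error 0.131, limma adjusted p = 4.39e-08). The gene pirk, whose product interferes with receptor signalling, had 5.73, 5.64, 5.47 and 5.62 against 7.10, 6.83, 6.90 and 6.86 (1.31, standard error 0.0758, adjusted p = 5.51e-11). For both, every +DOX array, replicate 4 included, lay above every -DOX array.

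Among the other calls in the pathway, those of key, imd and IKKbeta depended on which control arrays were in the fit. Diap2, a ubiquitin ligase of the pathway, had 6.91, 6.68, 6.75 and 6.76 against 7.87, 7.42, 7.73 and 7.20 (0.78, limma adjusted p = 4.39e-05). Its groups did not overlap, and its change was 0.42 in replicate 4 alone. The kinase subunit gene key, singled out after its values were seen, had 6.77, 6.27, 6.22 and 6.19 against 7.32, 7.03, 7.16 and 6.46, so that replicate 4 fell inside the -DOX range. Its rise of 0.63 (adjusted p = 0.00165) was not called without +DOX replicate 1 (0.52, adjusted p = 0.0109). The adaptor gene imd, likewise singled out, fell by 0.49 (adjusted p = 0.00867) on values of 4.79, 4.37, 4.17 and 4.29 against 3.83, 3.70, 3.64 and 4.51. In replicate 4 alone it was 0.10 above the -DOX mean (adjusted p = 0.875), and another probe set for imd changed by 0.21. The fall kept its call only without -DOX replicate 3 or +DOX replicate 4. Leaving out any of the other 6 control arrays gave -0.52 to -0.36 with adjusted p of 0.0103 to 0.0434. IKKbeta, a kinase of the pathway singled out in the same way, rose by 0.38 (adjusted p = 0.00685) on values of 4.13, 4.11, 3.99 and 4.14 against 4.71, 4.38, 4.71 and 4.08. It changed by -0.015 in replicate 4 alone (adjusted p = 0.98) and kept its call only without +DOX replicate 2 or 4, the other 6 giving 0.30 to 0.39. Without +DOX replicate 1, 3 of the 13 pathway genes were higher.

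Of 17 Toll pathway genes, 6 were higher (35.3%, against 12.8% of all genes) and 0 lower, with a median of 0.28. That median was 0.14 in replicate 4 alone. Without +DOX replicate 4 the higher count was 10. The gene spz, for the ligand of Toll, had 6.78, 7.03, 6.32 and 7.01 without DOX and 8.003, 7.70, 7.75 and 7.58 with DOX (0.97, standard error 0.128, limma adjusted p = 1.28e-05). Tl, the receptor gene, rose by 0.56 (adjusted p = 0.00023) and dl, one of the NF-kappaB factors of the pathway, by 0.62 (adjusted p = 0.000531). In replicate 4 alone these 3 genes stood 0.80, 0.55 and 0.42 above the -DOX mean, with adjusted p of 0.0763, 0.09 and 0.435. Of 7 JAK-STAT and Turandot genes, 1 was higher and 1 lower, and none with replicate 4 as the only +DOX array. Stat92E, the transcription factor of that pathway, rose by 0.41 (adjusted p = 0.0095), although another probe set of the gene changed by -0.36, and TotE, a stress-induced humoral factor, fell by 0.35 (adjusted p = 0.00513). Stat92E was not called without -DOX replicate 1 or 3 or +DOX replicate 1 or 3 (0.29 to 0.44), nor TotE without any 1 of -DOX replicates 1 to 3 or +DOX replicates 1 to 3 (-0.35 to -0.31). The shares called in the JAK-STAT and Turandot list, 14.3% in each direction, were close to those of all genes (12.8% and 12.6%).

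Genes of melanization and the thioester proteins moved mostly upward. Of 14, 9 were higher (64.3%, against 12.8% of all genes) and 1 was lower (7.14%, against 12.6%), with a median of 0.42. Pu, the GTP cyclohydrolase that opens pterin synthesis, had 5.29, 5.66, 5.68 and 6.09 without DOX and 7.39, 6.67, 7.20 and 6.88 with DOX (1.36, standard error 0.147, limma adjusted p = 1.03e-06). Ddc, the dopa decarboxylase of the cuticle and of dopamine synthesis, had 6.48, 6.21, 6.16 and 6.49 against 7.68, 7.26, 7.53 and 7.12 (1.06, standard error 0.107, adjusted p = 3.22e-07). These are the 2 genes of the list called in all 3 fits, and neither had overlapping groups. Tep4, a thioester protein, rose by 0.54 (adjusted p = 8.11e-05), with replicate 4 lowest of the +DOX arrays at 9.65 against 9.89 to 9.99. PPO3, a prophenoloxidase gene chosen after its values were seen, fell by 0.37 (adjusted p = 0.00136). Irc, an immune-regulated catalase that removes hydrogen peroxide in the gut, had 9.17, 8.80, 8.55 and 9.01 against 10.29, 9.91, 10.03 and 9.85 (1.14, standard error 0.116, adjusted p = 3.77e-07), called in all 3 fits.

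Lysozymes, which in flies are largely digestive enzymes of the midgut, went partly the other way. Of 7, 3 were lower (42.9%, against 12.6% of all genes) and 1 higher (14.3%, against 12.8%), with a median of -0.31. That median was -0.40 in replicate 4 alone. LysE and LysD fell by 0.75 (limma adjusted p = 0.00138) and 0.68 (adjusted p = 0.00112), and in replicate 4 alone they stood at -0.68 and -0.73 from the -DOX mean without being called. Both probe sets are marked by the array design as shared by a family of similar transcripts, so the members of the cluster cannot be told apart. LysX, singled out after its values were seen, rose by 0.60 (adjusted p = 0.00159) and was not called without +DOX replicate 3 (0.49, adjusted p = 0.0104).

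Digestive serine proteases of the gut were more often lower than higher. Of 28 trypsin-like and Jonah protease genes, 12 were lower (42.9%, against 12.6% of all genes) and 1 was higher, with a median of -0.30 that was -0.25 and -0.32 after median centring and quantile normalization. The median was -0.32 in +DOX replicates 1 to 3 and -0.29 in replicate 4 alone. Without +DOX replicate 1 the lower count was 6. Jon74E, a chymotrypsin-like Jonah protease, had 11.24, 10.96, 11.14 and 11.21 without DOX and 10.31, 10.20, 10.41 and 10.55 with DOX (-0.77, standard error 0.0912, limma adjusted p = 3.25e-06). The trypsin gene betaTry had 11.77, 11.17, 10.68 and 11.03 against 10.16, 10.42, 10.32 and 10.33 (-0.85, adjusted p = 0.000101). In neither gene did the groups overlap. Jon25Biii fell by 0.82 (adjusted p = 0.00235) on values of 10.13, 9.15, 9.504 and 9.81 against 8.37, 8.93, 8.84 and 9.20, which overlap, and was not called without +DOX replicate 1 (-0.66, adjusted p = 0.0154). Ser6, the 1 higher gene and chosen for that, rose by 0.43 (adjusted p = 0.0032) and was not called without -DOX replicate 1 or 2 or without +DOX replicate 1, 2 or 3 (0.37 to 0.42).

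Carbohydrate digestion did not follow the proteases. Of 19 maltase, amylase and related genes, 6 were higher (31.6%, against 12.8% of all genes) and 0 lower, with a median of 0.14. That median was 0.04 in replicate 4 alone. After quantile normalization 3 were higher and 2 lower. Mal-B2, a maltase, had 7.64, 8.50, 8.41 and 8.52 without DOX and 9.61, 9.52, 9.34 and 9.10 with DOX (1.13, standard error 0.148, limma adjusted p = 1.3e-05). Its neighbour Mal-B1 had 7.24, 7.09, 7.10 and 7.45 against 8.36, 8.35, 8.34 and 7.75 (0.99, adjusted p = 0.000214), where replicate 4 stood well below the other +DOX arrays.

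Lipid genes were called in both directions. Of 19 genes of fat storage and fatty acid oxidation, 7 were higher (36.8%, against 12.8% of all genes) and 2 lower (10.5%, against 12.6%). The higher count was 3 without +DOX replicate 1, 4 without +DOX replicate 2 and 3 after quantile normalization. None of the 19 was called with replicate 4 as the only +DOX array. The 2 lower genes were mag, which encodes the gut lipase magro, and whd, the carnitine palmitoyltransferase that admits fatty acids to mitochondria. The lipase gene mag had 8.23, 7.44, 7.58 and 7.59 without DOX and 6.88, 7.11, 7.17 and 6.71 with DOX, a fall of 0.74 (limma adjusted p = 0.00047) that was -0.996 in replicate 4 alone (adjusted p = 0.0395). For whd the fall of 0.65 (adjusted p = 0.000236) came from replicates 1 to 3, at 7.75, 8.07 and 8.04 against 8.55 to 8.89 without DOX, while replicate 4 was at 8.55. Outside this list, Jabba, a protein that binds histones to lipid droplets, had 8.69, 8.53, 8.53 and 8.66 against 7.68, 8.11, 7.87 and 7.69 (-0.77, standard error 0.103, adjusted p = 1.47e-05). Npc2h, of the sterol-binding NPC2 family and also outside the list, had 10.67, 10.65, 10.74 and 10.68 against 10.11, 10.34, 10.37 and 10.08 (-0.46, adjusted p = 0.000133). Both were called in all 3 fits, and in both the falls in replicates 1 and 4 were the deepest.

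Enzymes that build purines and move one-carbon units were mostly higher with DOX. Their 2 lists were written after the values were seen, so their counts are a description. Of 9 genes of de novo purine synthesis, 7 were higher and 0 lower, with a median of 0.85, and 3 of them (Pfas, Gart and Adsl) were called in all 3 fits. Pfas, which acts at the fourth step of the pathway, had 8.03, 7.91, 7.91 and 8.20 without DOX and 9.68, 9.77, 9.63 and 9.47 with DOX (1.63, standard error 0.125, limma adjusted p = 3.9e-09). Gart, which encodes a protein with several activities of the pathway, had 7.13, 7.30, 7.31 and 7.24 against 8.84, 8.83, 8.53 and 8.59 (1.45, standard error 0.128, adjusted p = 4.39e-08). Groups did not overlap in either gene. Adsl, adenylosuccinate lyase, rose by 0.93, Paics by 0.85 and Prat2, the amidotransferase that opens the pathway, by 1.23, and for Prat2 replicate 4 was the lowest +DOX array at 8.99 against 9.62 to 9.88.

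Of 8 genes of the folate and methyl group cycle, 6 were higher and 1 was lower, with a median of 0.79, and pug, Shmt and Ahcy were called in all 3 fits. The gene pug, for a trifunctional enzyme that interconverts folates, had 7.89, 8.12, 8.23 and 8.22 without DOX and 9.19, 9.43, 9.09 and 9.12 with DOX (1.09, standard error 0.097, limma adjusted p = 4.39e-08). Shmt, serine hydroxymethyltransferase, had 8.26, 8.39, 8.50 and 8.43 against 9.21, 9.48, 9.39 and 9.12 (0.91, adjusted p = 1.11e-07). In each of these genes all +DOX arrays were above all -DOX arrays. Gnmt, which uses up methyl groups by methylating glycine, rose by 1.24 and Ahcy, which clears the product of methylation, by 0.68. Nmdmc, the mitochondrial folate dehydrogenase, rose by 1.18, from 7.59, 7.95, 7.76 and 8.06 to 8.85, 9.36, 9.32 and 8.56, and in replicate 4 alone its change was 0.72 (adjusted p = 0.244). The 1 lower gene was Ts, thymidylate synthase, at -0.41 (adjusted p = 0.00307), not called without -DOX replicate 2 or +DOX replicate 1 or 3 (-0.36 to -0.34).

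Genes of mitochondrial translation and respiration, processes that tetracyclines can reach, changed little at the level of RNA in the deposited values. Called in either direction were 7.81% of mitochondrial ribosomal proteins, 12.9% of complex I subunits and 8.33% of subunits of complexes II to IV and ATP synthase. Of all genes, 25.4% were called. Of 64 mitochondrial ribosomal proteins, 2 were higher and 3 lower, with a median of -0.02, and of 14 mitochondrial aminoacyl-tRNA synthetases none was called (median 0.01). Of 31 complex I subunits 3 were higher and 1 was lower (median -0.01), and of 36 subunits of complexes II to IV and ATP synthase 1 was higher and 2 were lower (median -0.08). None of these was called with replicate 4 as the only +DOX array. Leaving out single arrays moved these small counts: without +DOX replicate 4, 8 ribosomal proteins and 9 complex I subunits were higher, and without +DOX replicate 1 none of either was. After quantile normalization 14 subunits of complexes II to IV and ATP synthase were lower, and the median of that list was -0.23. Of 13 translation and maintenance factors 2 were lower (15.4%, against 12.6% of all genes) and 0 higher. The falls of mEFG1, the mitochondrial elongation factor G, at -0.46 (limma adjusted p = 9.95e-05), and of mRpS18C, a small-subunit ribosomal protein, at -0.41 (adjusted p = 0.00064) were the largest in these 5 lists. For mEFG1 the values were 5.27, 5.03, 4.99 and 4.98 without DOX and 4.57, 4.61, 4.59 and 4.63 with DOX, a narrow gap that all 4 +DOX arrays shared. Sod2, the gene of MnSOD itself, had 7.66, 7.38, 7.56 and 7.67 against 8.14, 7.98, 8.07 and 7.59, and its rise of 0.38 (adjusted p = 0.00312) was absent from replicate 4 (0.03). It was not called without -DOX replicate 2 or +DOX replicate 1 or 3 (0.31 to 0.34).

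In the stress and turnover lists described here, median changes were lower in replicate 4 alone than in replicates 1 to 3. Of 12 genes of superoxide and peroxide removal 4 were higher (33.3%) and 0 lower, with a median of 0.19. That median was 0.03 in replicate 4 alone. The largest rise of this list was that of Irc, described above. Of 10 genes of the amino acid stress response, 6 were higher (60%, against 12.8% of all genes) and 0 lower, with a median of 0.41 that was 0.12 in replicate 4 alone. Shmt and Nmdmc, described above, are 2 of the 6, and scyl, a stress-induced inhibitor of TOR signalling, rose by 0.80 (limma adjusted p = 0.000283). Of 6 heat shock genes 3 were higher (50%), Hsp110 by 0.82 (adjusted p = 0.000175), DnaJ-1 by 0.56 and Hsp68 by 0.42, and this count was 1 without +DOX replicate 3 and 5 without +DOX replicate 4. Of 39 proteasome subunits 8 were higher (20.5%) and 2 lower, with a median of 0.13 that was 0.02 after quantile normalization. The higher count was 3 after that normalization, 4 without +DOX replicate 1 or 3, 5 without -DOX replicate 2 or 3 and 15 without +DOX replicate 4. The subunit gene Prosbeta5 had 8.04, 7.65, 8.03 and 8.14 without DOX and 8.86, 8.90, 8.95 and 8.17 with DOX. Of 29 subunits of the vacuolar ATPase 8 were higher (27.6%) and 0 lower, 5 without +DOX replicate 1 and 3 after quantile normalization, with a median of 0.11 that became -0.0027 after it, and Vha100-1, a subunit of its membrane part, had 7.15, 6.97, 7.13 and 7.28 against 8.16, 7.87, 8.03 and 7.47.

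The detoxification families differed in their counts. Of 83 cytochrome P450 genes 11 were higher and 6 lower (13.3% and 7.23%, against 12.8% and 12.6% of all genes), with a median of -0.01. Of 34 glutathione S-transferases 6 were higher and 1 was lower (17.6% and 2.94%), with a median of 0.23 that was 0.08 after quantile normalization, and the higher count was 2 without -DOX replicate 3 or +DOX replicate 3, 3 without +DOX replicate 1 or 2 and 11 without +DOX replicate 4. Of 33 UDP-glycosyltransferases 2 were higher and 4 lower (6.06% and 12.1%), with a median of -0.14, and the lower count was 1 without -DOX replicate 3 or +DOX replicate 3 and 2 without -DOX replicate 2 or +DOX replicate 1. None of these genes was called with replicate 4 as the only +DOX array. Cyp4p1 rose by 0.75 (limma adjusted p = 0.0002) and Cyp9b2, chosen after its values were seen, fell by 0.57 (adjusted p = 0.000718), with another of its probe sets at -0.86. In replicate 4 alone they stood at 0.40 and -0.64. Ugt37A2, a glycosyltransferase, was among the largest falls of all, with 5.30, 4.81, 4.62 and 4.91 against 3.70, 3.94, 4.00 and 4.13 (-0.97, standard error 0.153, adjusted p = 8.67e-05). These values lay below the median of every control array (5.56 to 5.68). With the lowest 40% of probe sets left out, the lower count of UDP-glycosyltransferases was 0.

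**Figure D4:**
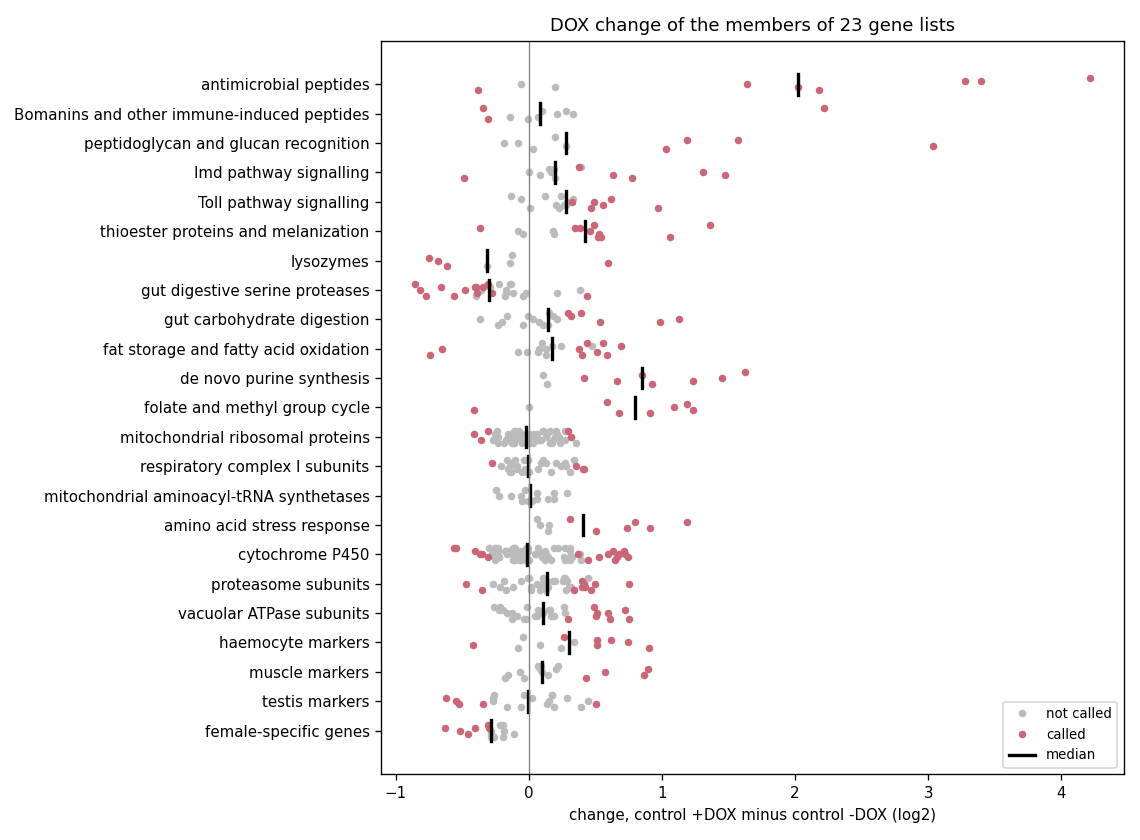
Change with DOX (log2) of the members of 23 gene lists, red where called and grey where not, with the median of each list as a black bar. Antimicrobial peptides reach furthest to the right (median 2.02), digestive proteases lie mostly left of 0 (median -0.30) and mitochondrial ribosomal proteins are centred near 0 (median -0.02).

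Markers of single tissues were read in the same arrays, since the samples were whole flies. Mean RMA values over 12 haemocyte (blood cell) markers were 5.94 to 6.09 without DOX and 6.19 to 6.43 with DOX, without overlap and with replicate 4 the lowest of the +DOX arrays. Of these markers 6 were higher and 1 lower, and none with replicate 4 as the only +DOX array: srp, a GATA factor of blood cells and fat body, rose by 0.90 (limma adjusted p = 2.57e-06), the phagocytosis genes NimB2 and crq by 0.75 and 0.62, and Pxn, peroxidasin, chosen after its values were seen, fell by 0.42 (adjusted p = 8.32e-05). Hml, the defining marker of plasmatocytes, rose by 0.51 (adjusted p = 0.00324), with 7.37, 6.98, 7.03 and 7.08 against 7.74, 7.38, 8.11 and 7.29, which overlap, and was not called without -DOX replicate 2 or 3 or +DOX replicate 1 or 3 (0.35 to 0.49). The higher count of 6 markers (50%, against 12.8% of all genes) was 3 with the lowest 40% of probe sets left out. It was 2 in the 8 control arrays only. The share of blood cells in the rise of the immune genes was not tested.

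Markers of the germ line and of females were also read, since all samples were labelled male. Mean values over 15 female-specific genes (yolk, chorion and vitelline membrane proteins) were 6.27 to 6.44 without DOX and 5.90 to 6.27 with DOX, with replicate 4 next to the -DOX range. Of these genes 6 were lower (40%, against 12.6% of all genes) and 0 higher. The lower count was 3 without any 1 of -DOX replicates 2 and 3 and +DOX replicates 1 to 3, and 10 without +DOX replicate 4. The median change was -0.36 in +DOX replicates 1 to 3 and -0.11 in replicate 4 alone. The gene psd, for a vitelline membrane protein, had 6.63, 6.61, 6.32 and 6.27 against 5.62, 5.76, 5.73 and 6.22. Testis markers overlapped in their mean, at 8.02 to 8.25 against 7.98 to 8.20. Of the 20, 4 were lower (20%, against 12.6% of all genes), among them Mst84Dc, a sperm tail protein, by 0.62 (limma adjusted p = 0.000201). The 1 higher gene (5%, against 12.8%) was betaTub85D, the testis beta-tubulin, by 0.50 (adjusted p = 0.00244). It was not called without -DOX replicate 2 or +DOX replicate 1 (0.42 and 0.43). No testis marker was called with replicate 4 as the only +DOX array, nor any of 15 muscle markers. Of the latter 4 were higher (26.7%, against 12.8% of all genes) and 0 lower. They were led by the giant sarcomere proteins sls (0.89, with other probe sets of the gene down to -0.11) and bt (0.86). The mean over the list was 7.83 to 8.04 against 8.03 to 8.29. Of 23 accessory gland and ejaculatory bulb markers 5 were higher and 2 lower (21.7% and 8.7%, against 12.8% and 12.6% of all genes), with a median of 0.02. Their largest rise was that of EbpIII, the ejaculatory bulb protein, with 11.95, 11.77, 11.94 and 12.09 against 12.85, 12.78, 12.77 and 12.32. Of 9 fat body markers 1 was lower (11.1%) and 0 higher, with a median of -0.02. The lower gene was Fbp1, the receptor for larval storage proteins, which fell by 0.61 (adjusted p = 0.000213).

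Of 35 odorant-binding proteins 7 were higher and 6 lower (20% and 17.1%, against 12.8% and 12.6% of all genes), and with replicate 4 as the only +DOX array 0 were higher and 1 lower. The largest change was that of Obp56a, at 6.71, 6.14, 6.52 and 6.76 without DOX and 8.58, 8.28, 8.31 and 7.54 with DOX (1.64, standard error 0.164, limma adjusted p = 2.78e-07), and in replicate 4 alone it was 1.01 (adjusted p = 0.0137). Obp57c rose by 0.93. With the lowest 40% of probe sets left out, the lower count of odorant-binding proteins was 1. The clock gene cwo, a repressor of the circadian loop, was called in all 3 fits, with 6.94, 7.02, 6.67 and 6.94 against 8.07, 7.54, 7.70 and 7.82 (0.89, standard error 0.102, adjusted p = 2.36e-06), although another probe set of cwo changed by 0.24.

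Several genes known only by number were also among the largest rises. CG17107 had 6.66, 6.34, 6.41 and 6.65 without DOX and 8.88, 8.60, 8.44 and 8.37 with DOX (2.06, standard error 0.126, limma adjusted p = 1.37e-10). CG4757 had 7.21, 7.04, 6.90 and 7.42 against 9.24, 9.89, 9.08 and 8.93 (2.14, standard error 0.175, adjusted p = 1.32e-08), and CG9701 had 6.96, 6.89, 6.96 and 7.01 against 8.91, 8.69, 8.91 and 8.51 (1.80, standard error 0.113, adjusted p = 1.82e-10). All 3 were called in all 3 fits and had groups more than 1 log2 unit apart. CG13947, singled out after its values were seen, had 9.19, 9.97, 9.05 and 8.76 against 11.07, 11.08, 10.66 and 11.18 (1.75). Among named genes chosen in the same way, Ect3 rose by 1.69 and Miox, the inositol oxygenase, by 0.95.

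The deepest falls differed in what replicate 4 showed. CG12057 had 8.86, 8.74, 8.91 and 8.74 without DOX and 7.27, 7.99, 7.93 and 7.34 with DOX (-1.18, standard error 0.137, limma adjusted p = 2.71e-06), and CG1648 had 10.97, 10.92, 11.07 and 11.09 against 9.94, 10.22, 10.16 and 9.96 (-0.94, standard error 0.0896, adjusted p = 1.28e-07). In both, replicate 4 was among the lowest of the +DOX arrays, and both were called in all 3 fits, as were CG17124 (-0.73) and CG17752 (-0.65). CG14742 had the largest fall in the fit to all arrays, -1.68, on values of 8.17, 8.66, 8.58 and 8.09 against 6.48, 6.69, 5.76 and 7.83, so that replicate 4 stood close to the -DOX arrays (-0.54, adjusted p = 0.301). The dynein light chain gene robl62A (-1.11), CG16824 (-1.09, with another probe set at -0.48) and CG13722 (-0.92) had the same form, with replicate 4 alone at -0.50, -0.51 and -0.29 and not called. CG7542 and CG15263, both falling by 0.84 or 0.85, held their size in replicate 4 (-0.81 and -1.01) but were not called there, at adjusted p of 0.0932 and 0.0288. The probe sets of CG14742 and CG16824 are of the kind that the array design marks for relaxed probe selection.

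The same feeding was applied to flies of the MnSOD line, in which DOX also induces MnSOD, and 8 separate arrays measured it at day 73. There 74 of 10845 genes (0.682%) were called, 26 higher and 48 lower. All 46 genes called in all 3 fits of the control flies had the opposite sign in the MnSOD line, and 24 of them were called the opposite way there and 0 the same way. The difference between the changes in the 2 lines was called for all 46, and for 6.37% of all genes (4.12% higher in control flies and 2.25% lower). The 46 were chosen for their control changes, and the difference reuses the same control arrays, so this count is in part built in. The difference was called even for CG17752 and cwo, which changed by 0.00 and -0.05 in the MnSOD line. Over all 10845 genes the opposite sign was seen in 42.6%, and over the called control genes outside the set in 39.8%. In control flies 25.4% of all genes were called in either direction. Of the 74 genes called in the MnSOD line, 52 (70.3%) were called the opposite way in control flies, 2 (2.7%) the same way and 20 (27%) not at all. The 2 were Sod2 and Tspo, the mitochondrial outer membrane translocator protein, chosen after its values were seen, at 0.29 in control flies and 0.42 in the MnSOD line. If the control labels were exchanged, the genes called the opposite way would be called the same way, and the reverse. The sources used here do not settle which applies.

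Single genes show the size of this contrast, for which limma tested the difference between the 2 changes. Listericin changed by 2.22 in control flies and by -1.74 in the MnSOD line (difference 3.96, adjusted p = 7e-10), CG17107 by 2.06 and -1.39 (difference 3.45, adjusted p = 6.17e-12) and PGRP-SC2 by 1.19 and -1.05 (difference 2.24, adjusted p = 4.79e-10). PGRP-LB changed by 1.57 and -0.66 (difference 2.23, adjusted p = 3.53e-11). For Rel the change of 1.48 in control flies stood beside -0.11 in the MnSOD line, which was not called (adjusted p = 0.934), and for Gart 1.45 stood beside -0.46 (adjusted p = 0.0812), with differences of 1.58 and 1.91. Gnmt (1.24 and -0.86) and Obp56a (1.64 and -1.19) were called in both lines in opposite directions. Among genes that fell in control flies, Jon74E (-0.77 and 0.71), Jabba (-0.77 and 0.51) and CG1648 (-0.94 and 0.91) were all higher with DOX in the MnSOD line. The 2 lines were not matched otherwise, since DOX switched on MnSOD in only 1 of them. The MnSOD insertion was made in a strain other than Oregon R. The series description gives day 78 for control flies and day 73 for the MnSOD line. Spike-in means were 7.98 to 8.41 in control +DOX replicates 1 to 3 and 9.36 to 9.99 in the MnSOD line arrays. The part of these differences in the contrast was not tested.

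**Figure D5:**
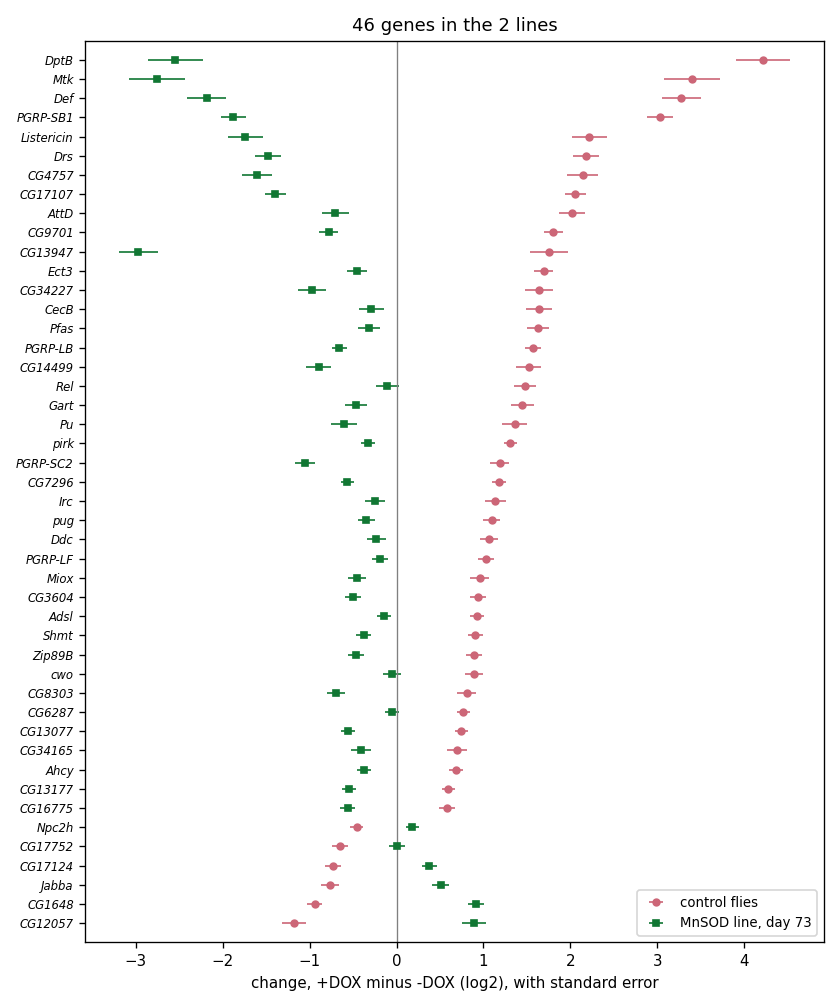
Change with DOX (log2, with standard error from limma) in control flies and in the MnSOD line at day 73 for the 46 genes called in all 3 fits of the control flies. The points of the 2 lines lie on opposite sides of 0 for all 46, with CG17752 (0.00) and cwo (-0.05) closest to 0 in the MnSOD line.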

How the data were processed

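RNA of 30 pooled adult males per sample was hybridized to 20 Affymetrix DrosGenome1 arrays, 4 in each of 5 groups taken from the sample labels. The deposited values are log2 signals that the authors obtained by RMA with the Bioconductor package affy (no version stated), and they were used as they stand. Intensities before RMA were not analysed here. RMA quantile-normalizes and models probes over all arrays together, so a distant array can move values on the others.

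Probe sets took their genes from the array's annotation, and gene identifiers brought 12394 symbols up to date. Of 14010 probe sets, 327 named several genes and 1239 none, and these entered the fit but not the counts. In R 4.3.3, limma 3.58.1 fitted a mean per group to all 20 arrays, and p-values were adjusted over all 14010 probe sets. Tables and figures used Python 3.11.15, numpy 2.4.6, pandas 2.3.3 and matplotlib 3.10.9. On simulated data the fit was tested for recovery of known changes. The number of arrays limits the precision.

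Named were the 10 largest rises and falls among called genes, the 8 largest of each also called with replicate 4 as the only +DOX array and with the spike-in covariate, up to 3 called genes of each of 46 lists, and Sod2. Only part of these are printed, chosen after their values were seen, as were 2 further lists and the genes marked so in the text. The members and lists were chosen with earlier results of these data known. List members that the annotation does not name were left out. Alternatives covered a replicate block, the choice of arrays, the spike-in signal, a filter, 2 scalings, the variance model, array weights, thresholds, the control labels and each control array left out.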

Additional observations from a re-analysis of the deposited data

Results flagged for a closer look

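In 10 of 200 groups of 4 control arrays, 1 array stood far from the other 3, measured as its gap to the nearest over the range of the group, and chance alone gives about 1 in 20. Among +DOX arrays, replicate 4 was the distant one for Mal-B1 (7.75, the others 8.34 to 8.36), CG16824 (6.96, the others 6.13 to 6.25), EbpIII (12.32, the others 12.77 to 12.85) and Prosbeta5 (8.17, the others 8.86 to 8.95). Replicate 1 was distant for mRpS18C (7.24, the others at 7.33). Among -DOX arrays, replicate 1 was the distant one for key (6.77, the others 6.19 to 6.27), LysX (4.14, the others 4.52 to 4.58), Mal-B2 (7.64, the others 8.41 to 8.52) and CG17752 (7.90, the others 7.65 to 7.66). The mean spike-in signal of -DOX replicate 2 was 10.24, with the other -DOX arrays at 9.61.

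The change with DOX differed between control flies and the MnSOD line at day 73 in limma for 11 genes that the report sets side by side. The difference, control change minus MnSOD line change, was 3.96 for Listericin, 3.45 for CG17107, 2.84 for Obp56a, 2.24 for PGRP-SC2, 2.23 for PGRP-LB, 2.10 for Gnmt, 1.91 for Gart, 1.58 for Rel, -1.27 for Jabba, -1.48 for Jon74E and -1.86 for CG1648. The adjusted p-values ran from 6.17e-12 for CG17107 to 2.69e-06 for Rel. All 11 genes were called in control flies, whose arrays the difference reuses, so a called difference is in part built in.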

How the results depend on the processing

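The 1469 members higher and 1708 lower with DOX changed most with the arrays in the fit. The counts were 655 and 474 in the 8 control arrays only, 40 and 8 with replicate 4 as the only +DOX array, and 62 and 20 with the spike-in mean as a covariate. Leaving out single control arrays gave 898 to 1963 higher and 838 to 2426 lower, the lowest without +DOX replicate 1, then 951 and 942 without +DOX replicate 3, and the highest without +DOX replicate 4. Leaving out the lowest 40% of probe sets gave 892 lower, array weights 2660 lower, a fold of at least 1.5 462 and 140, and an unadjusted p under 0.05 2703 and 3794. The cause was not tested, apart from the fewer arrays or probe sets that some of these fits hold. Replicate numbers did not pair the groups, since deviations of equal numbers correlated at 0.13, -0.13, -0.05 and -0.39. With the replicate block the counts were 1404 and 1657, and with the block in the 8 control arrays only 438 and 184. Of the genes called the opposite way in the MnSOD line, 31 of 52 remained among genes also called with the spike-in covariate, and of the 2 called the same way 0 did.

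Among genes examined under each setting, imd turned to 0.10 and IKKbeta to -0.015 with replicate 4 as the only +DOX array, and 58 others were no longer called there. Calls were lost by 53 genes with the spike-in covariate, 20 in the 8 control arrays only, 22 with the replicate block in these 8, 12 without +DOX replicate 1, 11 without +DOX replicate 3, 10 without -DOX replicate 2, and 6 or fewer under quantile normalization, median centring and the other single arrays left out. Of 35 list counts of 3 or more, 33 moved by over 1.5 times with replicate 4 as the only +DOX array, 32 with the spike-in covariate, 24 in the 8 control arrays only, 26 with the replicate block in these 8 and 1 with the block in all arrays. The number of arrays and their unequal technical signals limit the precision.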
